A study of Mus musculus with 5 samples.

Results

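Rod photoreceptors detect dim light with a chain of proteins in the outer segment, and 9 genes of that chain were followed in injured mouse retinas. They are Gnat1, Pde6a, Pde6b, Pde6g, Cnga1, Cngb1, Sag, Grk1 and Rcvrn, chosen by gene symbol from the 25655 symbols of the count table, and each was found. All retinas were whole retinas of wild-type C57BL/6 mice, aged 8 to 10 weeks at surgery, taken 7 days after crush of the optic nerve (ONC) of that eye. The 3 control mice were injected with DMSO, the vehicle, and the 2 treated mice with Sorbinil at 10 mg/kg, starting the day before ONC and repeated daily. Sorbinil inhibits aldose reductase, the enzyme that turns glucose into sorbitol. The study used both sexes, and the sex of these 5 mice is not given in the sources used here. Each retina came from a different mouse, and the Sorbinil retinas are labelled replicates 1 and 3. The authors left a Sorbinil retina out on the basis of a principal component analysis of its reads, so the spread of that group is the spread after this choice, and a replicate 2 was not analysed here.

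ONC injures the axons of retinal ganglion cells behind the eye and does not touch the rods directly. In a rod, light-activated visual pigment switches on the G protein transducin, transducin releases a brake on a phosphodiesterase, and the fall in cyclic GMP closes a cation channel. A kinase and an arrestin then shut the pigment off, under the control of a calcium sensor. Rods are by far the most numerous cells of the mouse retina. In bulk RNA, fewer rods and less RNA per rod cannot be told apart.

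The libraries held 56096541 to 90288552 counts on genes. The lowest count of a member, 37669 for Cnga1 in Sorbinil replicate 3, had a counting error of 0.515%, so that depth did not limit these values and the spread between retinas did. No pair of retinas agreed within the noise of sampling. Marker genes of rods, cones, bipolar, amacrine, horizontal and ganglion cells, Müller glia, microglia, endothelium and pigment epithelium had counts in all 5 retinas. Mitochondrially encoded genes took 1.94% to 2.66% of the counts with DMSO, and 3.70% and 4.05% in Sorbinil replicates 1 and 3. In the comparison of Sorbinil with DMSO, the median log2 fold change of the members was 0.1442, and 0.1449 with these genes left out. Any other link between this difference and the values of the members was not tested. Sorbinil replicate 1 stood apart from the other 4 retinas. The median log2 level of marker genes of each of 4 inner-retina lists lay -1.14 to -1.47 from the DMSO mean there, against -0.42 to 0.23 in the other retinas, so the results are also given without it.

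The stretches of genome just before 5 of the genes are shown because transcription factors of rods bind such regions. Each is the 200 bases that precede the annotated start of the canonical transcript (GENCODE vM39, GRCm39), written 5′ to 3′ on the strand of the gene. Capitals mark TAATC, the core of the sequence bound by the photoreceptor homeodomain factor Crx, and TGCTGA, a half-site of the rod leucine zipper factor Nrl. Both were searched on both strands, where they read GATTA and TCAGCA, and matches of these 2 did not overlap. The windows were picked after the expression values were seen, and none of these 5 holds an annotated exon. Each of the 5 holds TAATC. The windows of Pde6a, Cnga1 and Grk1, which hold neither motif, and that of Rcvrn are not shown. A link between these motifs and the levels of the members over the retinas was not tested.
Gnat1 (chr9:107556912-107557111, minus strand): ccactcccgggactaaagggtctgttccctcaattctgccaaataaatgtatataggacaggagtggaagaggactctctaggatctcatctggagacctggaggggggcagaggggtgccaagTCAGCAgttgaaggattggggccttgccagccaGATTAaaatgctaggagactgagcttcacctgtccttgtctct
Pde6b (chr5:108536043-108536242, plus strand): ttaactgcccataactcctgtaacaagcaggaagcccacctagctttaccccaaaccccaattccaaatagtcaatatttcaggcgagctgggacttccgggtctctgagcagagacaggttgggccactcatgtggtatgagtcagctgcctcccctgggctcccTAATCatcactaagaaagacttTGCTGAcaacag
Pde6g (chr11:120344327-120344526, minus strand): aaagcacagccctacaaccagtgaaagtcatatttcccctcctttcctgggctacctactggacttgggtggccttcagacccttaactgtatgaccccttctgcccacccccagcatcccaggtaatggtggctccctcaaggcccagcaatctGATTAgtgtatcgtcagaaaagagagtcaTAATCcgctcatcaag
Cngb1 (chr8:96033214-96033413, minus strand): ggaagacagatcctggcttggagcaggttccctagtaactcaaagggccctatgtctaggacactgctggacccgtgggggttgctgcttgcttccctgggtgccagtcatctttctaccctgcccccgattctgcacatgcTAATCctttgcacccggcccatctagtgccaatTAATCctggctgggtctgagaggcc
Sag (chr1:87731202-87731401, plus strand): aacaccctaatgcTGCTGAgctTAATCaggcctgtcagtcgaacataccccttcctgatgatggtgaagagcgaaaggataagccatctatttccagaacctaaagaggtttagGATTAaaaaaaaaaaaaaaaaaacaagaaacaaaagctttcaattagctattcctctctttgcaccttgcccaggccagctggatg

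TAATC was found before 6 of the 9 genes, namely Gnat1, Pde6b, Pde6g, Cngb1, Sag and Rcvrn, compared to 12.5% of the 14627 genes tested that had a window. The longer form TAATCC, which contains TAATC and reads GGATTA on the other strand, lay before Pde6g, Cngb1 and Sag, and before 4.8% of all these genes. TGCTGA lay before Gnat1, Pde6b and Sag, and before 10.5% of all. Cngb1 had a pair of TAATCC copies, which begin 58 and 25 bases before its start. A match describes the letters and is not a measured binding site. The windows of all genes were not matched to those of the members for base composition, so these shares are no like background.

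The members were among the most abundant transcripts of these retinas. Their summed share of all counts was 3.17%, 3.47% and 3.50% in the DMSO retinas. It was 3.88% for Sorbinil replicate 1 but 2.76% for Sorbinil replicate 3. The highest and the lowest share were both in Sorbinil retinas, on either side of all DMSO retinas. The group means were 3.38% ± 0.18 (SD, n = 3) with DMSO and 3.32% ± 0.789 (SD, n = 2) with Sorbinil, which did not differ beyond the spread (exact permutation test over the 10 groupings of the retinas, two-sided, p = 0.9, where 0.1 is the smallest p possible). This share uses no scaling between libraries. Without the mitochondrially encoded genes the means were 3.46% and 3.45%. On the CPM scale, which sets each count against the effective size of its library after TMM normalization, Gnat1 ranked 2 and Sag 10 among the 14992 genes tested, and Pde6a ranked 12.

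Per length of the canonical transcript, the DMSO levels in CPM per kilobase (mean ± SD, n = 3) spanned a wide range. Transducin alpha, Gnat1, led at 6582 ± 584, followed by the arrestin Sag at 2688 ± 277 and the inhibitory phosphodiesterase subunit Pde6g at 2143 ± 249. The calcium sensor Rcvrn stood at 1288 ± 105. The catalytic subunits Pde6a and Pde6b were at 762 ± 68.2 and 748 ± 114 and overlapped within 1 SD. The kinase Grk1 measured 296 ± 20.9 and the channel subunits Cnga1 and Cngb1 277 ± 37.6 and 169 ± 13.2. Grk1 and Cnga1 also overlapped within 1 SD, and the other neighbours in this order did not. This order rests on which transcript is taken as the gene's length. The exons of all annotated transcripts of Sag together span 8894 bases against 1719 for the canonical transcript. By the longer length the level of Sag would be 519 CPM per kilobase. Pde6a and Pde6b, close by canonical length, would be at 746 and 417 CPM per kilobase by that measure.

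The main comparison asked whether rod genes differ between Sorbinil and DMSO retinas after ONC. No difference was detected for any of the 9 members, and none passed the threshold of the study, an unadjusted p-value of at most 0.1 with a change of at least 2-fold, which 1.71% of the 14992 genes tested passed. The fitted log2 fold changes ran from -0.11 (Sag) to 0.26 (Grk1), and 8 of 9 were above zero, with a median of 0.14 compared to -0.0078 over all genes tested. The unadjusted p-values lay between 0.424 and 0.875, and the adjusted p-values between 0.786 and 0.96 (quasi-likelihood test of edgeR, adjusted over all genes tested by Benjamini-Hochberg). Over all genes the smallest adjusted p-value was 0.758, and 5.01% had an unadjusted p-value under 0.05, among them 0 members. No member passed an adjusted p-value of 0.05 with the DESeq2 Wald test either. In no member did both Sorbinil retinas lie on the same side of all DMSO retinas, as they did for 23.2% of all genes. The 2 Sorbinil retinas lay on opposite sides of them instead.

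Sorbinil replicate 1 was above every DMSO retina for all 9 members (background 43.4% of genes tested), and Sorbinil replicate 3 was below every DMSO retina for all 9 (background 29.1%). Of all genes tested, 13.6% had both features and 11.8% had the mirror image. With library sizes alone in place of TMM, Sorbinil replicate 1 was above every DMSO retina for 7 of 9 members, without Cnga1 and Sag, and its mean difference was 0.22, while Sorbinil replicate 3 stayed below for all 9. On the log2 CPM scale the mean of the members was 0.49 above the DMSO mean in Sorbinil replicate 1, a 1.41-fold level, with members from 0.24 to 0.68. In Sorbinil replicate 3 the mean was -0.36, a 0.78-fold level, with members from -0.56 to -0.20. The DMSO retinas had mean differences of -0.14, 0.024 and 0.12, and DMSO replicate 1 was the lowest DMSO retina for each of the 9 genes. The difference between the Sorbinil retinas was not tested.

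**Figure D1:**
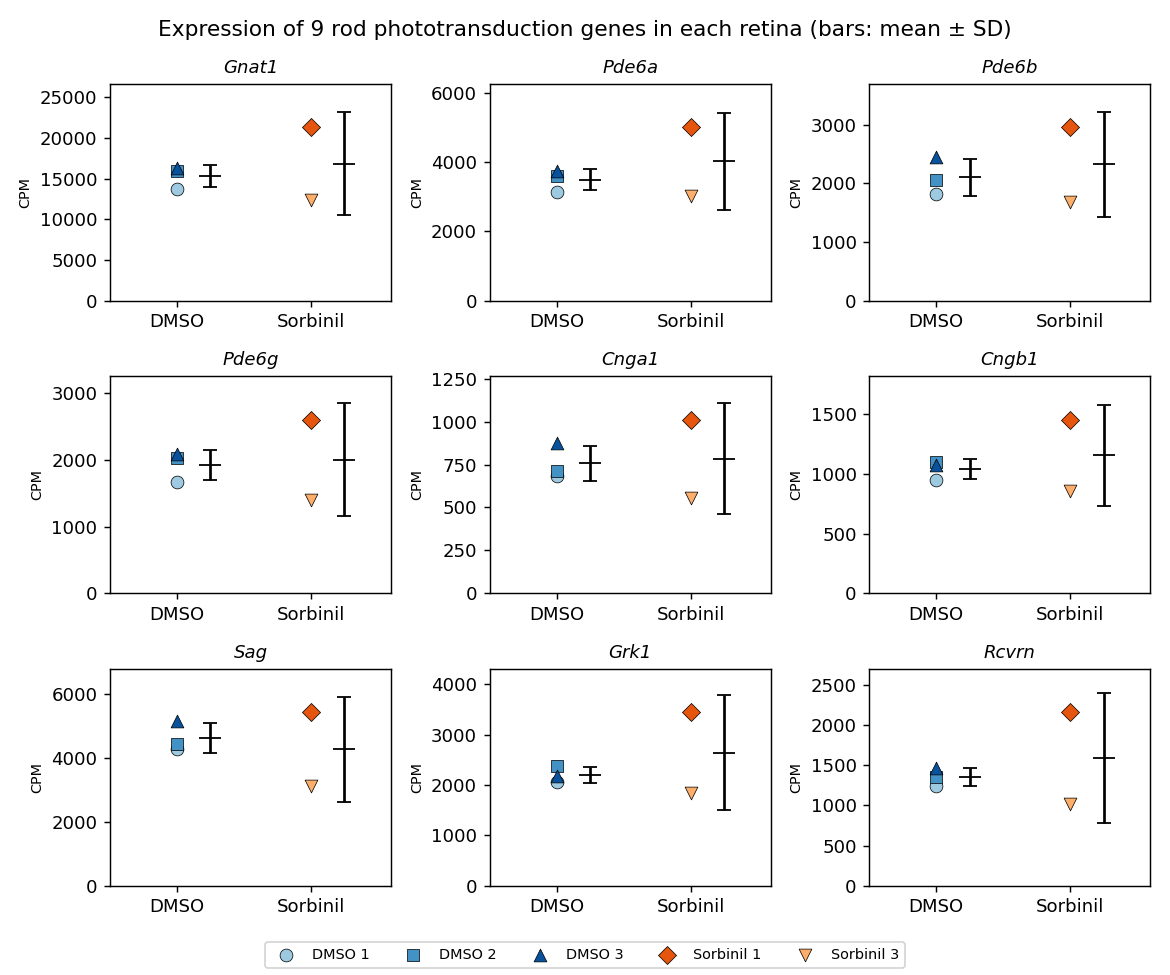
Level of each of the 9 genes in CPM (vertical axes, starting at 0) in the 3 DMSO and 2 Sorbinil retinas. Points are single retinas, and bars to their right show the mean and SD of each group. In every panel Sorbinil 1 is the highest retina and Sorbinil 3 the lowest, with the DMSO retinas between them. With library sizes alone as the scale, Sorbinil 1 is not the highest for Cnga1 and Sag.

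Transducin starts the amplification. Gnat1 (ENSMUSG00000034837, GRCm39 chr9:107551673-107556911, minus strand) encodes its alpha subunit in rods. It measured 13759.7, 15962 and 16244 CPM in DMSO replicates 1, 2 and 3, 21335 CPM in Sorbinil replicate 1 and 12337 CPM in Sorbinil replicate 3. Sorbinil replicate 1 was 1.73-fold above Sorbinil replicate 3, and the DMSO retinas lay between them. The DMSO mean of 15322 ± 1360.1 CPM (SD, n = 3) and the Sorbinil mean of 16836 ± 6363 CPM (SD, n = 2) gave a log2 fold change of 0.14 (standard error 0.38, 95% interval -0.80 to 1.07, adjusted p = 0.904). This interval and those of the other members, from edgeR's quasi-likelihood test, all reached up to 0.66 or more and down to -0.49 or less on the log2 scale. Changes of either direction within them remain compatible with these values. With library sizes alone the log2 fold change of Gnat1 was below zero. A long noncoding RNA gene overlaps Gnat1 exons on the opposite strand. The libraries were stranded, but whether strand entered the counting is not given in the sources used here, so reads of such partners cannot be told apart for Gnat1, Pde6a and Sag.

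Phosphodiesterase 6 breaks down cyclic GMP. Its catalytic core pairs Pde6a with Pde6b, and Pde6g holds it inactive in the dark. Pde6a (ENSMUSG00000024575, GRCm39 chr18:61353387-61422995, plus strand) spans 22 exons. It measured 3147, 3596 and 3749 CPM in DMSO replicates 1, 2 and 3, 5017 CPM in Sorbinil replicate 1 and 3038 CPM in Sorbinil replicate 3. Again the Sorbinil retinas bracketed the DMSO retinas. On average Pde6a stood at 3498 ± 313 CPM (SD, n = 3) in DMSO retinas against 4028 ± 1399 CPM (SD, n = 2) in Sorbinil retinas, with a log2 fold change of 0.20 (standard error 0.29, 95% interval -0.51 to 0.91, adjusted p = 0.814). Pde6b (ENSMUSG00000029491, GRCm39 chr5:108536243-108580263, plus strand), mutations of which cause rod degeneration, likewise has 22 exons. It measured 1812, 2054 and 2446 CPM in DMSO replicates 1, 2 and 3, 2963 CPM in Sorbinil replicate 1 and 1687 CPM in Sorbinil replicate 3. DMSO replicate 3 was the nearest retina to Sorbinil replicate 1, and DMSO replicate 1 the nearest to Sorbinil replicate 3. Sorbinil retinas averaged 2325 ± 902 CPM (SD, n = 2) and DMSO retinas 2104 ± 319.8 CPM (SD, n = 3), for a log2 fold change of 0.14 (standard error 0.30, 95% interval -0.60 to 0.89, adjusted p = 0.872). Pde6g (ENSMUSG00000025386, GRCm39 chr11:120338431-120344326, minus strand) has 4 exons. It measured 1674, 2021 and 2093 CPM in DMSO replicates 1, 2 and 3, 2606 CPM in Sorbinil replicate 1 and 1405 CPM in Sorbinil replicate 3. Its Sorbinil retinas were 1.86-fold apart. The DMSO mean of 1929 ± 224 CPM (SD, n = 3) and the Sorbinil mean of 2005 ± 849 CPM (SD, n = 2) gave a log2 fold change of 0.056 (standard error 0.31, 95% interval -0.70 to 0.82, adjusted p = 0.955). The direction of Pde6g turned with library sizes alone. These adjusted p-values come from the quasi-likelihood test of edgeR.

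The cyclic GMP-gated channel carries the dark current. Cnga1 is the subunit that forms its pore, and Cngb1 the subunit that modulates it. Cnga1 (ENSMUSG00000067220, GRCm39 chr5:72761039-72801618, minus strand) had the lowest CPM of the members. It measured 686, 714 and 877 CPM in DMSO replicates 1, 2 and 3, 1013 CPM in Sorbinil replicate 1 and 555 CPM in Sorbinil replicate 3. DMSO replicate 3 stood above the other DMSO retinas, and below Sorbinil replicate 1. On average Cnga1 stood at 759 ± 103 CPM (SD, n = 3) in DMSO retinas against 784 ± 324 CPM (SD, n = 2) in Sorbinil retinas, with a log2 fold change of 0.048 (standard error 0.29, 95% interval -0.67 to 0.76, adjusted p = 0.96). Cngb1 (ENSMUSG00000031789, GRCm39 chr8:95965672-96033213, minus strand), a gene of 33 exons that also gives rise to soluble glutamic acid-rich proteins, showed the same order of the retinas at both ends. It measured 949.7, 1104 and 1076 CPM in DMSO replicates 1, 2 and 3, 1456 CPM in Sorbinil replicate 1 and 855 CPM in Sorbinil replicate 3. The DMSO retinas were close to each other, within 0.22 on the log2 scale. Sorbinil retinas averaged 1156 ± 425 CPM (SD, n = 2) and DMSO retinas 1043 ± 82.0 CPM (SD, n = 3), for a log2 fold change of 0.15 (standard error 0.26, 95% interval -0.50 to 0.79, adjusted p = 0.848). A processed pseudogene and a long noncoding RNA gene lie on the same strand within Cnga1, outside its exons. The direction of Cnga1 turned with library sizes alone. Adjusted p-values are again from edgeR.

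Shut-off of the pigment needs a kinase, an arrestin and a calcium sensor. Grk1 (ENSMUSG00000031450, GRCm39 chr8:13455081-13471951, plus strand) encodes the kinase that phosphorylates active pigment. It measured 2065, 2371 and 2173 CPM in DMSO replicates 1, 2 and 3, 3452 CPM in Sorbinil replicate 1 and 1835 CPM in Sorbinil replicate 3. Sorbinil replicate 1 was 1.57-fold the DMSO level. On average Grk1 stood at 2203 ± 155 CPM (SD, n = 3) in DMSO retinas against 2643 ± 1143 CPM (SD, n = 2) in Sorbinil retinas, with a log2 fold change of 0.26 (standard error 0.31, 95% interval -0.49 to 1.02, adjusted p = 0.786). Sag (ENSMUSG00000056055, GRCm39 chr1:87731402-87772880, plus strand), the rod arrestin that caps the phosphorylated pigment, was the only member with a fitted change below zero. It measured 4276, 4420.4 and 5164 CPM in DMSO replicates 1, 2 and 3, 5437 CPM in Sorbinil replicate 1 and 3114 CPM in Sorbinil replicate 3. Its Sorbinil replicate 1 value was 1.18-fold the DMSO level, and its Sorbinil replicate 3 value 0.676-fold, each the lowest of the 9 members in that retina. The DMSO mean of 4620.2 ± 476 CPM (SD, n = 3) and the Sorbinil mean of 4275 ± 1642 CPM (SD, n = 2) gave a log2 fold change of -0.11 (standard error 0.31, 95% interval -0.89 to 0.66, adjusted p = 0.905). Rcvrn (ENSMUSG00000020907, GRCm39 chr11:67586141-67594159, plus strand) encodes recoverin, which holds the kinase back when calcium is high. It measured 1244, 1353 and 1464 CPM in DMSO replicates 1, 2 and 3, 2164 CPM in Sorbinil replicate 1 and 1023 CPM in Sorbinil replicate 3. The Sorbinil retinas were 2.12-fold apart, the widest gap of the members. Sorbinil retinas averaged 1594 ± 807 CPM (SD, n = 2) and DMSO retinas 1354 ± 110.0 CPM (SD, n = 3), for a log2 fold change of 0.24 (standard error 0.33, 95% interval -0.59 to 1.06, adjusted p = 0.815). Glp2r overlaps Rcvrn on the opposite strand outside its exons, with at most 246 counts, and a long noncoding RNA gene overlaps Sag exons on the opposite strand. Adjusted p-values are from edgeR as above.

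Each Sorbinil retina was also compared on its own with the 3 DMSO retinas, in fits that assume the lone Sorbinil retina to vary as the DMSO retinas do. These fits use TMM, and whether their results hold with library sizes alone was not tested. With library sizes alone the mean difference of the members in Sorbinil replicate 1 was 0.22, against 0.49 with TMM. Cnga1 and Sag were then not above every DMSO retina. Without Sorbinil replicate 1, all 9 log2 fold changes were below zero, from -0.56 (Sag) to -0.19 (Pde6a). Sag, Rcvrn, Pde6g and Cnga1 had unadjusted p-values under 0.05, at 0.0142, 0.0319, 0.0358 and 0.0406 (edgeR's quasi-likelihood test), a level reached in the lower direction by 3.18% of genes in that fit. Their adjusted p-values were 0.601 for Sag and 0.626 for the other 3. In that fit 0 genes reached an adjusted p-value under 0.05 by edgeR. Without Sorbinil replicate 3, all 9 were above zero, from 0.24 (Sag) to 0.68 (Rcvrn). All but Sag had an unadjusted p-value under 0.05 there, as did 22.4% of genes in the higher direction. Rcvrn, Grk1, Cngb1 and Pde6a had adjusted p-values of 0.0124, 0.0136, 0.0338 and 0.0348 in edgeR, and 15.4% of all genes were higher at an adjusted p-value under 0.05 in that fit. Sag was the member nearest to zero there (adjusted p = 0.267, edgeR). The direction of every member other than Sag thus turned when Sorbinil replicate 1 was left out, and that of Sag when Sorbinil replicate 3 was left out. The signs of these single-retina fits restate the pattern given above and are no separate result. In that pattern Sorbinil replicate 1 was above and Sorbinil replicate 3 below every DMSO retina. Without DMSO replicate 1, Pde6g and Cnga1 also turned below zero, at -0.037 and -0.02.

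**Figure D2:**
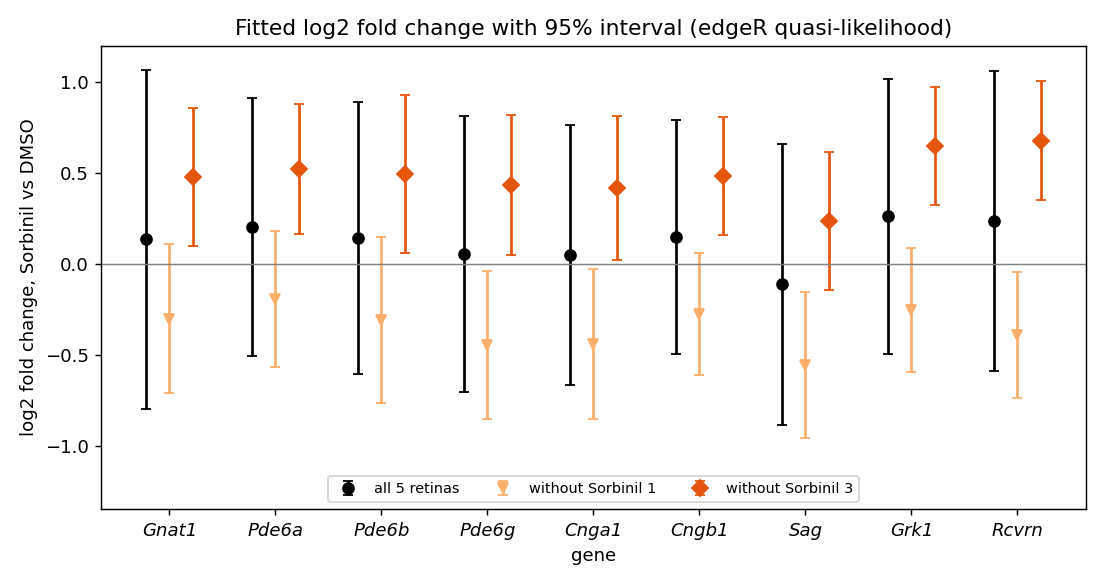
Fitted log2 fold change of Sorbinil against DMSO (vertical axis) for each gene, with 95% intervals, for all 5 retinas (black), without Sorbinil 1 (triangles) and without Sorbinil 3 (diamonds). The black intervals all cross 0, the triangles are all below 0 and the diamonds all above it. All fits shown use TMM.

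The members were also compared with their own mean. Over the 5 retinas, single members spanned 0.72 to 1.08 on the log2 scale, but after the mean of the 9 genes in each retina was taken away they spanned 0.08 (Gnat1) to 0.30 (Sag). Each gene is part of that mean, so these spans are narrower in part by construction. A set of 3 members then set the groups apart, and 10.6% of all genes did so after the same mean was taken away. For genes outside the 9 this step adds the inverse of the shared pattern, while for the members it removes that pattern. The 10.6% is therefore not a like background for the members. Sag lay -0.25 and -0.21 from the mean in Sorbinil replicates 1 and 3, below its -0.083 to 0.046 in the DMSO retinas. Grk1 lay 0.16 and 0.097 from it, above its DMSO range of -0.14 to 0.084. Pde6a lay 0.032 and 0.16 from it, above -0.015 to 0.02. The exact permutation p-values (two-sided, n = 3 and 2) were 0.1 for Sag, 0.3 for Grk1 and 0.1 for Pde6a, and 0.1 is the smallest that these retinas allow. Adjusted over the 9 members they were 0.45, 0.6 and 0.45.

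**Figure D3:**
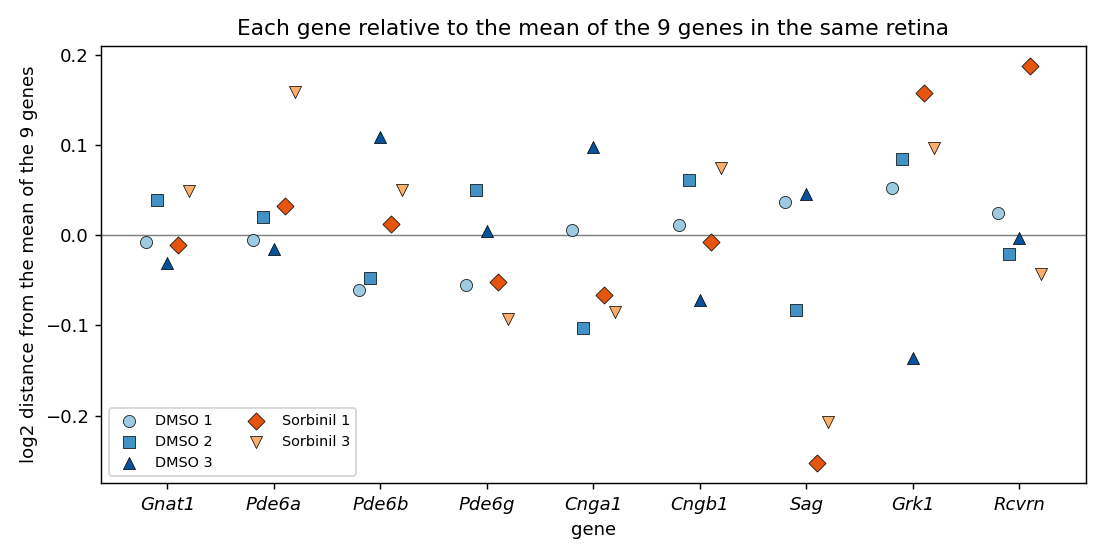
Log2 difference of each gene from the mean of the 9 genes in the same retina (vertical axis), each gene's DMSO mean set to 0. Sag is below its DMSO points in both Sorbinil retinas, Grk1 and Pde6a are above theirs, and the other 6 genes overlap.

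Ratios of raw counts within a retina need no scaling. Of the 36 ratios between members, 11 did not overlap between the groups, and of the ratios of a member to each gene outside the 9, 11.2%. These shares are not a like comparison. A ratio to an outside gene keeps the pattern of the members, with the Sorbinil retinas on opposite sides, while a ratio between members takes it away. Levels of single genes separated the groups for 23.2% of all genes. Sag was in 7 of the 11, out of the 8 ratios it enters, so these ratios are not independent. Its ratios to genes outside the 9, with the same limit, separated the groups for 23.5%. Per Sag count, Gnat1 had 3.22, 3.61 and 3.15 counts with DMSO and 3.92 and 3.96 with Sorbinil (exact permutation test, two-sided, p = 0.2). The Pde6b to Sag ratio was 0.424, 0.465 and 0.474 with DMSO and 0.545 and 0.542 with Sorbinil (exact permutation test, p = 0.1). Both Sorbinil retinas thus had less Sag for their Gnat1 and Pde6b than any DMSO retina. On the TMM scale Sorbinil replicate 1 had high and Sorbinil replicate 3 low levels of all 3 genes. With library sizes alone, Sag in Sorbinil replicate 1 was not above every DMSO retina. The catalytic pair had Pde6a to Pde6b ratios of 1.74, 1.75 and 1.53 with DMSO and 1.69 and 1.80 with Sorbinil, which overlap. Pde6a counts per Pde6g count were 1.88, 1.78 and 1.79 with DMSO and 1.93 and 2.16 with Sorbinil (exact permutation test, p = 0.1). Adjusted over the 36 ratios by Benjamini-Hochberg, the p-value of each of these that separated the groups was 0.54.

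The other genes of the cascade were measured for comparison with a list of 14 genes. They encode the beta and gamma subunits of transducin (Gnb1, Gngt1), the complex that ends its signal (Rgs9, Rgs9bp, Gnb5), the guanylate cyclases that restore cyclic GMP (Gucy2e, Gucy2f) with their calcium-sensing activators (Guca1a, Guca1b), the calcium exchanger (Slc24a1), and proteins that bind or carry the others (Pdc, Unc119, Aipl1, Pde6d). None of the 14 was called, 11 had a fitted change above zero and 3 below, and the median log2 fold change was 0.16. In Sorbinil replicate 1, 12 were above every DMSO retina, and in Sorbinil replicate 3, 10 were below every DMSO retina, with both in 8 genes. Gnb1, the partner of Gnat1, measured 8753, 10419 and 10962 CPM with DMSO, 15561 CPM in Sorbinil replicate 1 and 8224 CPM in Sorbinil replicate 3. Gucy2f had the highest log2 fold change, 0.69 (standard error 0.35), and did not reach 2-fold (adjusted p = 0.758 by edgeR's quasi-likelihood test). It measured 435, 562 and 616 CPM with DMSO, 1185 CPM in Sorbinil replicate 1 and 548 CPM in Sorbinil replicate 3, so that its Sorbinil replicate 3 value lay inside the DMSO range. Guca1a had the lowest, -0.17 (standard error 0.36).

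Most genes for other parts of the photoreceptor were also above the DMSO retinas in Sorbinil replicate 1. None of 14 genes for outer segment structure and retinoid handling was called, with 12 above and 2 below zero and a median log2 fold change of 0.28. Cdhr1, a cadherin at the base of the outer segment, was highest at 0.47 (standard error 0.33), and Tulp1, which takes part in transport to it, lowest at -0.14 (standard error 0.19). Of 6 photoreceptor genes for regulators of transcription, 6 were above zero and none was called. They ran from 0.08 (standard error 0.23) for Samd7 to 0.38 (standard error 0.35) for Nr2e3. Nrl, which specifies rods, measured 1461, 1729 and 2157 CPM with DMSO, 2598 CPM in Sorbinil replicate 1 and 1373 CPM in Sorbinil replicate 3. Crx measured 1299, 1381 and 1642 CPM with DMSO, 2085 CPM in Sorbinil replicate 1 and 1275 CPM in Sorbinil replicate 3. Of 6 genes of the photoreceptor synapse, 6 were above zero and none was called, from 0.17 (standard error 0.22) for Elfn1 to 0.54 (standard error 0.31) for Lrit3. Over these 3 lists and the cascade partners, 37 of 40 genes were above every DMSO retina in Sorbinil replicate 1, none was below, and 27 of 40 were below every DMSO retina in Sorbinil replicate 3. With library sizes alone these counts were 34 and 28.

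Cones use a parallel cascade, with genes of their own for many but not all of its parts. Of 10 cone genes, 8 were above zero and 2 below, none was called, and the median log2 fold change was 0.14, next to 0.14 for the 9 rod genes. The median difference from the DMSO mean of the cone genes was 0.45 and -0.22 in Sorbinil replicates 1 and 3, compared to 0.48 and -0.31 for the rod genes. The difference between the rod and cone genes was not tested. Gnat2, the cone counterpart of Gnat1, measured 134, 149 and 180.0 CPM with DMSO, 165 CPM in Sorbinil replicate 1 and 109 CPM in Sorbinil replicate 3, and its Sorbinil replicate 1 value lay inside the DMSO range. Pde6h, the counterpart of Pde6g, had the highest log2 fold change of the cone genes, 0.34 (standard error 0.32), and Gnat2 the lowest, -0.18 (standard error 0.23).

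Marker genes of the cells of the inner retina were lower than with DMSO in Sorbinil replicate 1. Of 40 markers of bipolar, amacrine, horizontal and ganglion cells and of Müller glia, 40 were below every DMSO retina there, and none was above (background 41.7% below). In Sorbinil replicate 3, 7 of the 40 were below every DMSO retina (background 29.1%) and 9 above (background 27.3%). Of the 9 rod genes, 9 were below there. Summed over its markers, the bipolar list measured 1429 to 1601 CPM with DMSO, 877 CPM in Sorbinil replicate 1 and 1647 CPM in Sorbinil replicate 3. The Müller glia list measured 6145 to 7461 CPM with DMSO, 2346 CPM in Sorbinil replicate 1 and 6401 CPM in Sorbinil replicate 3. The amacrine and horizontal list measured 951 to 1223 CPM with DMSO, 403 CPM in Sorbinil replicate 1 and 1189.8 CPM in Sorbinil replicate 3. The list of ganglion cells, the neurons that the crush injures, measured 165 to 259.6 CPM with DMSO, 78.8 CPM in Sorbinil replicate 1 and 201 CPM in Sorbinil replicate 3. These neuron and glia sums were lowest in Sorbinil replicate 1, and the cause was not tested. For the 9 rod genes the sums were 29613 to 35286 CPM with DMSO, 45443 CPM in Sorbinil replicate 1 and 25849 CPM in Sorbinil replicate 3. Markers of microglia were 159 to 235 CPM with DMSO, 107 CPM in Sorbinil replicate 1 and 175 CPM in Sorbinil replicate 3, those of endothelium 306 to 476 CPM with DMSO, 163 CPM in Sorbinil replicate 1 and 409 CPM in Sorbinil replicate 3, and those of pigment epithelium 89.1 to 239 CPM with DMSO, 76.6 CPM in Sorbinil replicate 1 and 134 CPM in Sorbinil replicate 3. The endothelial sum was carried by Kdr and Flt1, and single genes of that list differed more than the sum. Of its 10 genes, 9 were below every DMSO retina in Sorbinil replicate 1 and 8 in Sorbinil replicate 3, with a median log2 difference of -1.93 and -0.68. Cldn5, Cdh5, Tek, Tie1 and Emcn passed the threshold of the study as lower with Sorbinil, at log2 fold changes of -1.62, -1.88, -1.31, -1.83 and -1.88, with an adjusted p-value of 0.758 each (edgeR), and were the only genes called in any list here. These 5 genes had low levels, from 0.019 CPM (Emcn, Sorbinil replicate 1) to 7.87 CPM (Cldn5, DMSO replicate 1). No marker of these lists was at 0 in any retina. High rod gene values and low inner-retina marker values were thus found in the same library, Sorbinil replicate 1, and the part of cell composition in the rod gene levels was not tested.

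**Figure D4:**
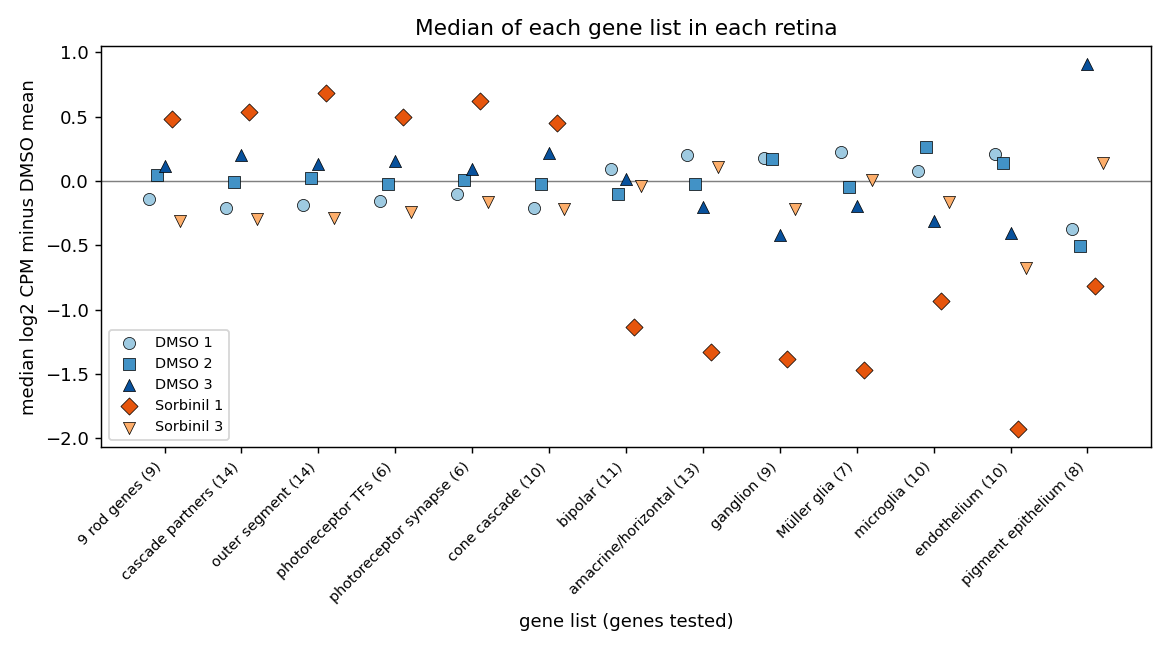
Median over the genes of each list of log2 CPM minus the DMSO mean (vertical axis), one point per retina, with the number of genes in parentheses. Sorbinil 1 is highest in the 6 photoreceptor lists, at 0.45 to 0.69, and lowest in the other 7, at -1.93 to -0.82, while Sorbinil 3 is lowest in the 6 photoreceptor lists (5 of 6 with upper-quartile scaling).

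Outside all lists, the genes whose pattern was most like the members were sought among 5531 genes with a mean log2 CPM of at least 5, by the root mean square difference of centred log2 CPM from the mean of the 9 genes over the 5 retinas. The closest were Sdhaf1, Tctn2, Pdzph1, Osbp2 and Ccdc117, at 0.0218, 0.0235, 0.0335, 0.034 and 0.0352. Sdhaf1 encodes an assembly factor of succinate dehydrogenase, Tctn2 a protein of the ciliary transition zone and Osbp2 an oxysterol-binding protein. Of the members, which enter that mean themselves, Gnat1 was closest to it at 0.0309 and Sag farthest at 0.122. Among the candidates, 500 genes were closer to the mean than Sag, 224 closer than Grk1, 128 closer than Rcvrn and 2 closer than Gnat1, so a place near the mean was not particular to the members. With 5 retinas, of which 1 stands apart, this likeness is a description.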

How the data were processed

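RNA-seq counts of injured retinas 7 days after ONC were compared between 3 DMSO and 2 Sorbinil mice. The authors trimmed adaptors, aligned the reads to GRCm39 by the defaults of CLC Genomics Workbench, and deposited total counts per gene, without normalization. The annotation release, the use of strand and the treatment of reads on several genes are not given in the sources used here, and the paper and the labels name different total RNA kits. Columns were matched to retinas by title, and 0 value columns were left unused. The members and gene lists were chosen with earlier results of these data known.

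The deposited counts were filtered with filterByExpr (minimum count 10), scaled by TMM and tested across all genes with glmQLFit and glmQLFTest in edgeR 4.0.16 (R 4.3.3), with DESeq2 1.42.0 among the alternatives. A prior count of 2 was added for log2 CPM, and standard errors are the log2 fold change divided by the root of F. Single values were tested by exact permutation over the 10 groupings. All 9 members are named, with the called, highest and lowest genes of the other photoreceptor lists and the 5 genes outside the lists nearest to the mean of the members. Positions, transcript lengths and sequence came from GENCODE vM39 and the GRCm39 genome, where 23488 of 25655 symbols matched 1 gene. Alternatives were the filter, the scaling, the genes used for it, the test, a replicate block and leaving out each retina.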

Additional observations from a re-analysis of the deposited data

How the results depend on the processing

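No member was called under any alternative. Under library size alone, where the median of all genes was -0.11, the log2 fold changes turned below zero for Gnat1 (-0.00637), Pde6g (-0.0909) and Cnga1 (-0.0971). With the replicate block that of Cnga1 was -0.0479. Directions held in the other fits on all 5 retinas. With 1 retina left out, the ranges were Gnat1 -0.301 to 0.479, Pde6a -0.192 to 0.522, Pde6b -0.307 to 0.496, Pde6g -0.446 to 0.435, Cnga1 -0.44 to 0.419, Cngb1 -0.275 to 0.483, Sag -0.558 to 0.236, Grk1 -0.252 to 0.649, Rcvrn -0.393 to 0.678, and the median of the members ran from -0.307 (without Sorbinil replicate 1) to 0.483 (without Sorbinil replicate 3). The difference in the share of counts, -0.0573 percentage points, ran from -0.615 to 0.501, and turned above zero without DMSO replicate 3 (0.00101) and without Sorbinil replicate 3. Over all genes, 257 calls became 408 with no filter, 148 with at least 10 counts in every retina, which tests fewer genes, 0 at an adjusted p-value under 0.05 (751 at an unadjusted p-value under 0.05, and at the adjusted one 21 by the DESeq2 Wald test, 14 by the likelihood ratio test, 4 with the replicate block and 5576 without Sorbinil replicate 3), and 164 (without DMSO replicate 1) to 2903 (without Sorbinil replicate 3) with 1 retina left out. Requiring at least 10 counts in every retina left 14131 genes tested, against 14992 in the main fit. The cause of these changes, also of those in the number of calls, was not tested. Replicate numbers gave 203 calls as a block, with correlations of same-numbered deviations of -0.243 and -0.125. Deviations of the Sorbinil retinas from their group mean are mirror images of each other. DMSO replicate 1 with Sorbinil replicate 3 thus gave 0.243, and DMSO replicate 3 with Sorbinil replicate 1 gave 0.125. For this reason the correlations cannot decide whether retinas of the same number form pairs or batches. Outside the block fit, the numbers were used only to name the retinas. Depth did not limit the members.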
